A study of Mus musculus with 4 samples.

Results

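Histone deacetylases are the enzymes that remove acetyl groups from lysines of histones and other proteins. Probes were taken whose gene name on the array is Hdac1 to Hdac9 or Hdac11, which gave 14 probes on 23 spots, out of 55681 distinct probes. They stand for 10 genes of 36086 genes or names. The family was chosen from earlier values of these same arrays, above all the difference in AEPS response of Hdac9. The levels of Hdac9 and that difference are therefore a description, with no p-value, although Hdac9 stays among the genes fitted and counted.

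The samples were 4 cultures of RAW264.7, an established mouse macrophage-like line, each read on 1 Agilent array after labelling in 1 colour. Cells with a Linc-AAM knockdown vector were kept for 4 h with 50 µg/mL AEPS or in DMEM medium alone, and cells with a Scramble vector were kept in the same ways. AEPS is a polysaccharide from roots of Actinidia eriantha, and Linc-AAM is a long intergenic non-coding RNA. The protocol, worded alike for every sample, names an EmGFP-miR vector for the knockdown and blasticidin selection of integrants in bulk, so each line is a mixed population, and the controls are vector-bearing cells too. The 4 groups thus hold 1 array each, and nothing in the labels says that a culture was repeated.

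The enzymes fall into classes. Class I (Hdac1, Hdac2, Hdac3 and Hdac8) is mostly nuclear, and Hdac1 to Hdac3 work inside corepressor complexes that silence genes, inflammatory genes of macrophages among them. Class IIa (Hdac4, Hdac5, Hdac7 and Hdac9) has little enzymatic activity of its own, binds MEF2 transcription factors, and leaves the nucleus when kinases phosphorylate it. Class IIb holds Hdac6, a mostly cytoplasmic deacetylase of tubulin, and class IV holds Hdac11.

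A level below is log2 of the processed intensity minus the 75th percentile of its array, so a level of 0 equals that percentile and a difference of 1 is 2-fold. Spots well above background made up 53.4% to 58.0% of an array, and the 75th percentile lay between 439.1 and 587.7 intensity units. Both extremes belong to the DMEM arrays, the lower ones to the array labelled knockdown and the higher ones to the array labelled scramble. All 10 macrophage markers checked were well above background on every array, and so were 2 of 5 T cell, 1 of 5 B cell, 1 of 5 fibroblast and 0 of 4 epithelial markers. Among the dark ones were Cd3g, Pdgfra and Epcam. The non-macrophage markers well above background on every array were Cd3e (levels of 0.54 to 1.02), Lck (-0.11 to 0.95), Cd79a (-2.97 to -2.43) and Col1a2 (-3.74 to -2.96). Il1b had levels of 8.12 and 8.48 under AEPS and -2.20 and -4.76 in DMEM (knockdown label first), which separates the treatment labels. The line labels are less sure: each column of the deposited value table ranked the probes like the scanner file of the other line (Spearman rho across probes 1.0, against 0.969 for its own). Lines are named here as on the scanner files, and exchanging the names turns the sign of every difference between lines computed from the scanner files. In extracts of whole cultures, fewer cells that express a gene and less RNA per cell cannot be told apart.

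Of the 10 genes, 9 were well above background on all 4 arrays and were tested, and Hdac11 was not well above background on any. The test was an additive limma model of line and treatment. Its only residual, with 1 degree of freedom, is the disagreement between the lines in their AEPS response. limma moderates that residual with a variance pooled over all tested genes, which weighs as 2.82 degrees of freedom. Of the 9 genes, 1 fell under AEPS (Hdac5) and 0 rose, where 7.29% of all 22341 tested genes fell and 7.4% rose (14.7% together). Hdac9 counts among the genes not called for AEPS or line, which its selection by its disagreement between the lines largely fixed beforehand. At an unadjusted p under 0.05 there were 2, Hdac5 and Hdac6, both lower, against 16.4% of all tested genes lower. The median AEPS effect was -0.10 over the 9 genes and 0.07 over all tested genes. Both AEPS arrays lay below both DMEM arrays for 3 of the 9 (Hdac4, Hdac5 and Hdac6), against 24.7% of all tested genes, and above them for 0 of the 9, against 35.3%. Hdac9, whose lines responded in opposite directions, could fall in neither of these counts, which its selection largely fixed beforehand too. Each p-value rests on how far these 4 arrays scatter, more over all tested genes than for the gene itself. That scatter may be technical, and the number of arrays limits the precision.

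**Figure D1:**
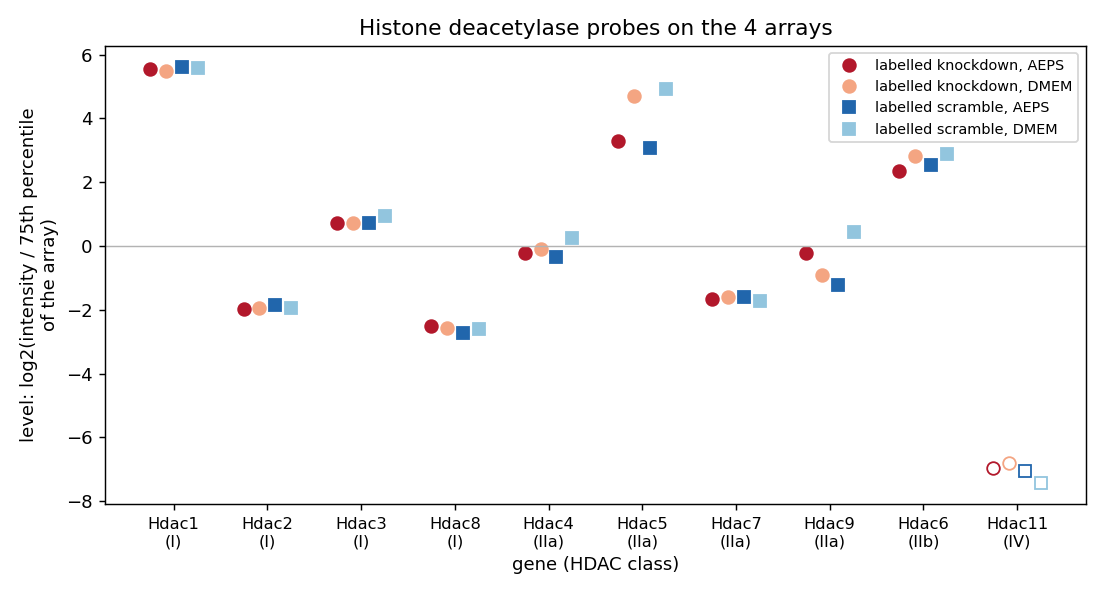
Level of each histone deacetylase gene (y axis, log2 of intensity over the 75th percentile of the array) on the 4 arrays, 1 point per array; genes run along the x axis with their class in brackets, and hollow points are not well above background. Hdac5 splits by treatment, with 3.29 and 3.08 under AEPS and 4.70 and 4.91 in DMEM, Hdac9 splits in no such way, and heights of different genes come from different probes and are not comparable.

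Hdac5, a class IIa enzyme that represses MEF2 target genes, was read by 1 probe on the minus strand of chromosome 11, between bases 102057076 and 102057135 (mm9, the build of the design). The end of that probe is shown, as the largest AEPS effect in the family rests on it; its last 30 bases hold the letters ATTAAA (capitals), one variant of the polyadenylation signal.
Hdac5 probe: attttgtttattttttctATTAAAaacaaa

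The level of Hdac5 was 3.29 under AEPS and 4.70 in DMEM on the arrays labelled knockdown. On the arrays labelled scramble it was 3.08 under AEPS and 4.91 in DMEM. Both AEPS arrays were low and both DMEM arrays high, with no overlap and little difference between the lines within a treatment. Hdac5 was 2.65-fold lower under AEPS with the knockdown label and 3.57-fold lower with the scramble label. Over both lines its level fell by 1.62 ± 0.16 (SE, log2; limma adjusted p = 0.0166), which is 3.08-fold. The call was lost when dim genes were kept in the fit (limma adjusted p = 0.0798 over 36086 genes, of which 0.0887% were called lower) and held in the other fits, where the adjusted p lay between 2.8e-05 and 0.0179. The line effect of Hdac5 was 0.00 ± 0.16 (SE, log2; limma adjusted p = 0.992).

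The promoter of Hdac5 is shown because the gene followed the treatment in both lines, and both promoters of Hdac9 because Hdac9 did not. They are RefSeq sequences of build GRCm38.p6, 250 bases before to 50 after a start site, all on the minus strand: chr11:102230123-102230422 for Hdac5, and chr12:34917046-34917345 and chr12:34528840-34529139 for Hdac9. Capitals mark the MEF2 consensus, the E-box CACGTG, the TATA box letters TATAAA plus the AP-1 letters TGANTCA, each searched on both strands.
Hdac5 promoter: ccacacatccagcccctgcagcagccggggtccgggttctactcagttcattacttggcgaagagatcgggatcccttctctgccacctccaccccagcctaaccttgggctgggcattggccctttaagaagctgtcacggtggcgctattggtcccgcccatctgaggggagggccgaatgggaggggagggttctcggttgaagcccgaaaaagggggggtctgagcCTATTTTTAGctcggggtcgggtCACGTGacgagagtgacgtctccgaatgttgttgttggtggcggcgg
Hdac9 promoter 1: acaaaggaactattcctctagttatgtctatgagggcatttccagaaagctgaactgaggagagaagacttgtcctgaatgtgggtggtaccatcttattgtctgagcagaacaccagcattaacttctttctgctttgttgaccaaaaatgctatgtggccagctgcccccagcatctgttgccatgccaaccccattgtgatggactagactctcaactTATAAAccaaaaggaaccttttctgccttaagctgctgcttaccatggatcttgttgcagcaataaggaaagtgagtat
Hdac9 promoter 2: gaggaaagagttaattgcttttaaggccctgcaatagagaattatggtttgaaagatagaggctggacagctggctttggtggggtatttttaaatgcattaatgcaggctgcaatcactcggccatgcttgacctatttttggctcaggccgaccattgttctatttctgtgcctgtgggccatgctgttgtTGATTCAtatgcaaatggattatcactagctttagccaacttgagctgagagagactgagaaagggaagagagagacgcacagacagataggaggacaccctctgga

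The Hdac5 window holds the MEF2 consensus as CTATTTTTAG, whose first base lies 20 bases before the start site, and a CACGTG that begins 3 bases after it. The MEF2 consensus was found in 3.19% and CACGTG in 7.15% of 32851 promoter windows of the same length. Among 12 windows of 8 members in the table, that of Hdac5 was the 1 window with either. The first Hdac9 window holds a TATAAA (13.6% of all windows), as does 1 window of Hdac8. The second holds a TGANTCA (7.81%), as does 1 window of Hdac7. GGGCGG was in 6 of the 12 windows (35.7% of all) and CCAAT in 5 (37.4%). The NF-kB consensus, the interferon-stimulated response element core and the CRE letters TGACGTCA were in 0 of the 12, against 4.51%, 3.44% and 1.79% of all windows. The E-box, AP-1 and CRE letters searched can overlap one another by a few bases. Such matches describe letters and not binding.

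Hdac9, a class IIa enzyme that also represses MEF2 targets, was read by 1 probe on the minus strand of chromosome 12, from 35056405 to 35056464 (mm9). Its last 30 bases are given because the widest disagreement between the lines rests on this probe.
Hdac9 probe: ttgtttgtatgttgccctttatgccttctg

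The level of Hdac9 was -0.22 under AEPS and -0.92 in DMEM on the arrays labelled knockdown. With the scramble label it was -1.22 under AEPS and 0.45 in DMEM. The DMEM array labelled scramble was the highest of the 4 and the AEPS array of the same label the lowest, with both knockdown arrays between them. AEPS and DMEM levels thus overlapped, and so did the lines. AEPS went with a 1.63-fold higher signal under the knockdown label and a 3.18-fold lower signal under the scramble label. The knockdown label was 2.01-fold above the scramble label under AEPS and 2.57-fold below it in DMEM.

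The difference in AEPS response of Hdac9, the response under the knockdown label minus that under the scramble label, was 2.37 on the log2 scale. Of 20339 genes well above background on all 4 arrays, 1 had a higher value, and 0 did with the normexp background, where Hdac9 had 2.02. A value of 1 or more was found for 0.526% of those genes and, within the family, for Hdac9 alone, and a value of -1 or less for 1.63% and 0 of the 9. Because the family was chosen by this value, the rank and the shares restate that choice and test nothing. The AEPS differences had opposite signs in the lines for 5 of the 9 genes, against 22.3% of all genes. Hdac9 is among these 5 through the values that chose the family. In the others (Hdac2, Hdac3, Hdac7 and Hdac8) the differences were small, the largest being -0.21 for Hdac3 under the scramble label. In the additive fit the AEPS effect of Hdac9 over both lines was -0.48 ± 0.62 (SE, log2), which was not called. The SE is wide through the same difference in response by which the family was chosen. That outcome was therefore largely fixed beforehand and is no result about Hdac9. The 4 values of Hdac9 come from 1 spot per array, and an interaction leaves 0 residual degrees of freedom. The high value of 0.45 belongs to the array with the most spots well above background (58.0%); whether the 2 are linked was not tested. A second probe that the design describes as histone deacetylase 9 under an Ensembl transcript name was not well above background on any array. It lies 3′ of the first on the same strand, at 34792084 to 34792143 of chromosome 12 (mm9), with levels of -7.23 to -5.84. Which Hdac9 transcripts the first probe reads was not tested. These probe positions cannot be set beside the promoter positions, which are of another build.

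**Figure D2:**
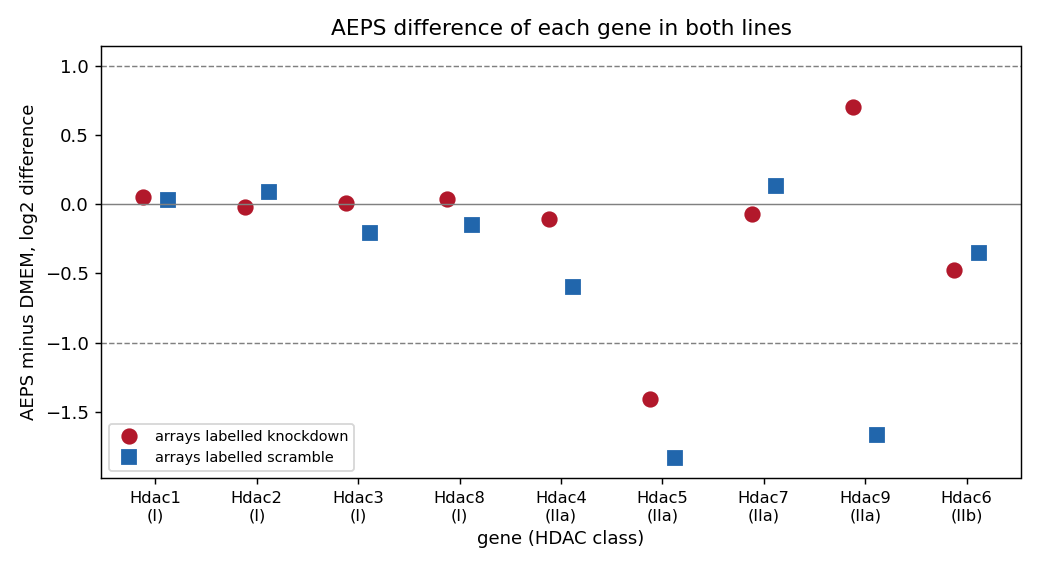
AEPS minus DMEM log2 difference (y axis) of the 9 measured genes (x axis, class in brackets), with circles for the arrays labelled knockdown and squares for those labelled scramble, 1 array pair per point; dashed lines mark 2-fold. Hdac5 lies below -1 in both lines (-1.41 and -1.84), Hdac9 has 0.70 and -1.67, and all other points lie between -0.60 and 0.13.

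Past 2-fold, 1 of the 9 genes was lower with AEPS under the knockdown label (Hdac5; 3.49% of all genes measured there) and 2 were under the scramble label (Hdac5 and Hdac9; 5.22%). Higher past 2-fold were 0 under either label (4.64% and 6.7% of all). Between the lines, Hdac9 was the 1 gene 2-fold higher under the knockdown label with AEPS (1.85% of all genes were) and the 1 gene 2-fold lower there in DMEM (1.51%). The opposite calls, lower with AEPS and higher in DMEM, held for 0 of the 9, against 2.69% and 2.36% of all genes. The value under AEPS, 1.01 on the log2 scale, lay just past the threshold and was 0.88 with the normexp background. The line effect over both media was called by limma for 0 of the 9 genes (0 also at an unadjusted p under 0.05), against 0.739% of all tested genes (14.6% unadjusted). Pairs of arrays have no replicate check, and the Hdac9 values here are those by which the family was chosen. Every gene is counted by its brightest probe.

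Hdac4, a class IIa partner of MEF2 known for its part in bone and muscle, had levels of -0.22 under AEPS and -0.11 in DMEM with the knockdown label. On the scramble arrays it had -0.34 under AEPS and 0.26 in DMEM. Both AEPS arrays were the lower ones, but the knockdown pair differed by only -0.11 against -0.60 for the scramble pair. The AEPS effect was -0.35 ± 0.17 (SE, log2; limma adjusted p = 0.231). A second probe described as histone deacetylase 4 under an Ensembl transcript name, from 93826607 to 93826666 of chromosome 1 (mm9), was dim but well above background on every array. It differed by 0.05 between AEPS and DMEM under the knockdown label and by -0.72 under the scramble label. Both probes thus gave the larger, negative AEPS difference on the arrays labelled scramble. Over all genes, too, that pair held more 2-fold AEPS differences (5.22% lower and 6.7% higher, against 3.49% and 4.64% with the knockdown label). The second probe's level there under AEPS, -4.47, was near the lowest level well above background on that array (-5.04).

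Hdac7, the class IIa member known best from thymocytes and blood vessels, had levels of -1.68 under AEPS and -1.60 in DMEM with the knockdown label. On the arrays labelled scramble it had -1.59 under AEPS and -1.73 in DMEM. Its 4 arrays overlapped fully, and the AEPS effect was 0.03 ± 0.13 (SE, log2; limma adjusted p = 0.884).

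In class I, Hdac1 was read by 3 probes on the minus strand of chromosome 4 within a stretch that begins at 129193374 and ends at 129193775 (mm9), and they did not behave alike. Their last 30 bases are given in 5′ to 3′ order of the gene; probe 2 is separated from probe 1 by 129 bases and from probe 3 by 93 bases.
Hdac1 probe 1: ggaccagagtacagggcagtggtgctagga
Hdac1 probe 2: cctaggaccccttttcaggcttgggtaata
Hdac1 probe 3: agatattttcattttgtgaaactctttgta

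Probe 3, the brightest of them and the one taken for the gene, had levels of 5.53 under AEPS and 5.48 in DMEM with the knockdown label. Its scramble arrays had 5.62 under AEPS and 5.59 in DMEM. Its 4 values lay within 0.14 of one another, with no order by treatment. The AEPS effect was 0.04 ± 0.11 (SE, log2; limma adjusted p = 0.816). Probe 1 was the dimmest of the 3 and far below probe 3, with levels of 0.50 to 0.62. It differed between AEPS and DMEM by 0.08 under the knockdown label and by 0.07 under the scramble label.

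Probe 2 had levels of 1.63 under AEPS and 2.45 in DMEM with the knockdown label. The scramble-labelled cultures had 1.51 under AEPS and 2.65 in DMEM. Both AEPS arrays were low and both DMEM arrays high. With each probe fitted on its own, which was chosen after seeing the data, the signal of probe 2 fell by 0.98 ± 0.14 (SE, log2; limma adjusted p = 0.0322 over 31268 probes), where 6.86% of all probes fell. None of the 3 shared a run of 20 bases with a probe of another name on either strand. What probe 2 reads that the probes on both sides of it do not was not tested, so the response of Hdac1 is given per probe and not as 1 value.

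**Figure D3:**
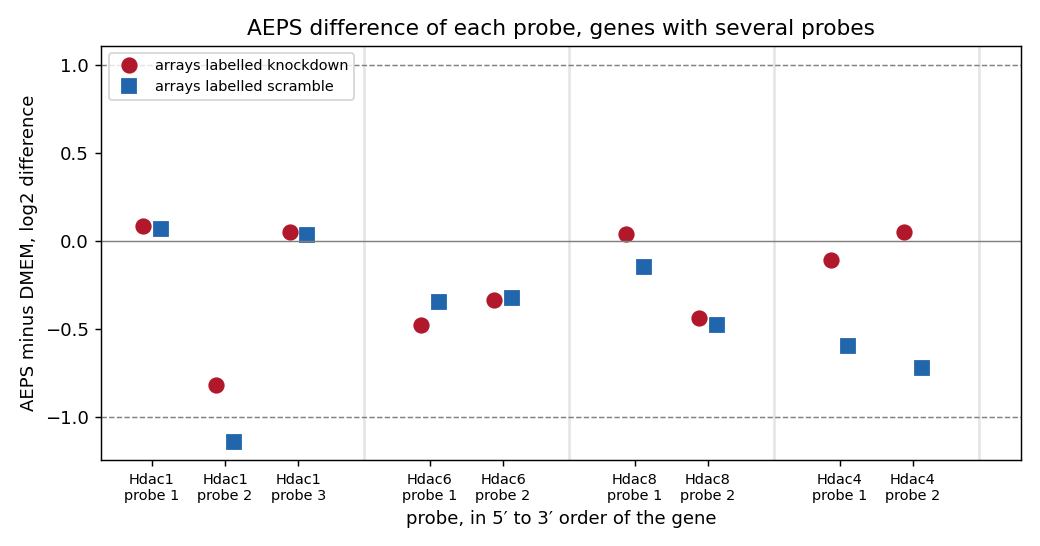
AEPS minus DMEM log2 difference (y axis) of each probe of Hdac1, Hdac6 and Hdac8 and of both probes described as Hdac4 (x axis, in 5′ to 3′ order of the gene), with circles for the knockdown label and squares for the scramble label, 1 array pair per point. Hdac1 probe 2 stands at -0.82 and -1.14 while the probes on both sides of it lie between 0.03 and 0.08.

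Hdac2, which shares most of its complexes with Hdac1, was read by 1 probe printed 10 times, placed on chromosome 10 from 36713455 to 36713589 (mm9), a span of 135 bases for a 60-base probe. The spots had an SD of 0.05 to 0.09 on the log2 scale within an array, leaving out 1 outlier spot on each scramble array. Its levels were -1.96 under AEPS and -1.94 in DMEM with the knockdown label. With the scramble label they were -1.86 under AEPS and -1.94 in DMEM. The arrays overlapped, and the AEPS effect was 0.03 ± 0.12 (SE, log2; limma adjusted p = 0.867).

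Hdac3, the catalytic subunit of the NCoR corepressor, had levels of 0.73 under AEPS and 0.72 in DMEM with the knockdown label. With the scramble label it had 0.73 under AEPS and 0.94 in DMEM. The DMEM array labelled scramble stood above 3 arrays that were nearly equal. The AEPS effect was -0.10 ± 0.13 (SE, log2; limma adjusted p = 0.610).

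Hdac8, a class I enzyme that deacetylates cohesin, had 2 probes on chromosome X. The one brighter on average, which stood for the gene, had levels of -2.52 under AEPS and -2.56 in DMEM with the knockdown label. On the arrays labelled scramble it had -2.74 under AEPS and -2.59 in DMEM. Its treatments overlapped, and the AEPS effect was -0.05 ± 0.12 (SE, log2; limma adjusted p = 0.775). The other probe, whose mm9 placement spans 94900 bases for 60 bases of sequence, was lower under AEPS by -0.44 with the knockdown label and by -0.48 with the scramble label. That difference did not pass the test per probe (limma adjusted p = 0.0847). In DMEM this other probe was the brighter of the 2, at -2.41 with the knockdown label and -2.44 with the scramble label. The choice of probe was thus a close one, and counts by gene use only the first.

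Hdac6, the class IIb tubulin deacetylase, also known as a sensor of misfolded protein, had levels of 2.35 under AEPS and 2.83 in DMEM with the knockdown label. Its scramble arrays had 2.53 under AEPS and 2.88 in DMEM. Both AEPS arrays were below both DMEM arrays, by 1.39-fold and 1.27-fold. The AEPS effect of -0.41 ± 0.12 (SE, log2) did not pass (limma adjusted p = 0.100). It passed with the normexp background (limma adjusted p = 0.0270) and with an intensity trend (limma adjusted p = 0.0283). The other probe of Hdac6, which overlaps the first by 48 bases and so is not an independent reading, had AEPS differences of -0.34 with the knockdown label and -0.33 with the scramble label.

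Hdac11, the class IV enzyme, known in macrophages as a negative regulator of Il10, was read by 1 probe on chromosome 6 from 91124085 to 91124144 (mm9). It was not well above background on any array, so no fold is given.

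The genes that the deacetylases work with were taken from lists. Of 39 subunits of class I corepressor complexes, 1 rose and 5 fell under AEPS by limma, with a median of -0.27 against 0.07 over all tested genes. For this and the other 4 lists, the shares over all tested genes were 7.4% higher and 7.29% lower. Rcor3, of the CoREST family, fell by 1.65 (limma adjusted p = 0.0227), with levels of 0.11 and -0.22 under AEPS and 1.44 and 1.75 in DMEM (knockdown label first here and below). Mideas, of the mitotic deacetylase complex, was 2.15-fold lower (limma adjusted p = 0.0310). Sin3a, Ing1 and Ing2, subunits of the SIN3 complex, were the other 3 that fell, by 0.89 to 1.03. Sap30, another SIN3 subunit, rose by 1.02 (limma adjusted p = 0.0361), with levels of 2.77 and 3.83 under AEPS and 1.99 and 2.59 in DMEM. Ncor1, a platform that holds Hdac3, had an effect of -0.29 that did not pass (limma adjusted p = 0.276).

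Of 29 partners and kinases of class IIa, 26 were tested, and 2 rose and 3 fell, with a median of 0.01. Mef2c, a MEF2 transcription factor of myeloid cells, fell by 1.54 (limma adjusted p = 0.0177). Its levels were -2.61 and -2.67 under AEPS and -1.29 and -0.91 in DMEM, with no overlap. Mef2a and Mef2d had effects of 0.02 and -0.32 that did not pass. Among the kinases, Camk2d rose by 1.06 (limma adjusted p = 0.0195) and Camk2g, of the same family, fell by 1.28 (limma adjusted p = 0.0294). Sik3 rose by 0.97 (limma adjusted p = 0.0220) and Sik2, also a salt-inducible kinase, fell by 0.68 (limma adjusted p = 0.0387). Both kinase families thus held a member higher and a member lower under AEPS.

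Of 16 histone acetyltransferases and coactivators, 0 rose and 3 fell, with a median of -0.29. Ncoa3 fell by 1.38 (limma adjusted p = 0.0363), Kat2b, also called PCAF, by 1.13 (limma adjusted p = 0.0213) and Ncoa1 by 0.86. Ep300 and Crebbp, the acetyltransferases p300 and CBP, had effects of -0.24 and -0.17 that did not pass. Of 7 sirtuins, which are NAD-dependent deacetylases, 0 rose and 1 fell, the mitochondrial Sirt3, by 0.80 (limma adjusted p = 0.0295). Of 4 BET genes, whose products bind acetylated histones, 0 rose and 1 fell, Brd3, by 1.01 (limma adjusted p = 0.0334). The line effect was called for 0 genes of these 5 lists, against 0.739% of all tested genes. When dim genes were kept in the fit, 0 genes of the 5 lists were called for AEPS by limma, and over all genes only 0.751% were called higher and 0.0887% lower. With an intensity trend it called 3 higher and 11 lower among the 39 corepressor subunits, against 16.2% higher and 13.8% lower over all genes.

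**Figure D4:**
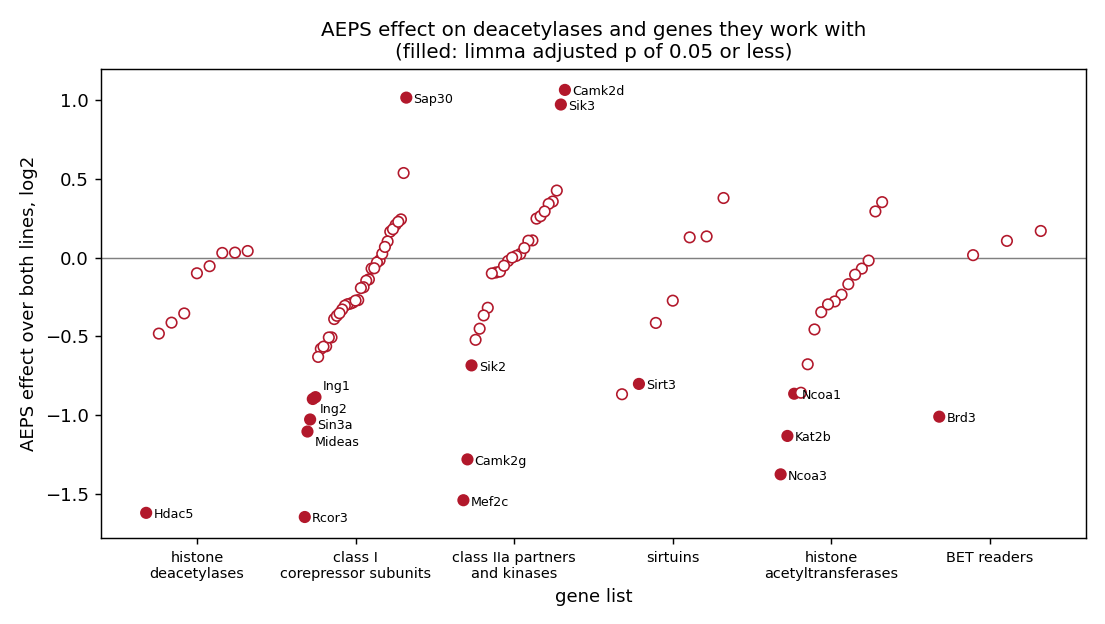
AEPS effect over both lines (y axis, log2, limma) for the 9 tested deacetylase genes and the tested genes of the 5 lists (x axis), 1 point per gene in rank order within a list; filled and named points passed an adjusted p of 0.05. Hdac5 is the only filled point among the deacetylases, at -1.62, next to Rcor3 at -1.65 and Mef2c at -1.54 in the other lists. Each gene is shown by its brightest probe, so probe 2 of Hdac1 is not in the figure.

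Hdac5 had the widest range over the 4 arrays in the family (1.84), and the genes most like it were sought among 3296 genes with a range of at least 1 by the distance between centred levels. The nearest named genes were Zfp41 (distance 0.04), Cpt1a, the entry enzyme of mitochondrial fatty acid oxidation (0.05), Pld1, a phospholipase (0.05), and Arhgef39 (0.09). Cpt1a had levels of 0.76 and 0.53 under AEPS and 2.14 and 2.31 in DMEM. For Hdac9, asked after its values were seen, the nearest were Rgs2, a regulator of G protein signalling (0.48), Ptchd1 (0.56), L3mbtl3 (0.56), Hoxb3 (0.60) and Vwf (0.62). Rgs2 had levels of 5.28 and 4.75 under AEPS and 5.17 and 6.07 in DMEM, again highest on the DMEM array labelled scramble and lowest on the AEPS array of that label. The distances to Hdac9 were all larger than those to Hdac5, and likeness over 4 arrays is a description.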

How the data were processed

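The deposited scanner files hold spot intensity, read with Agilent Feature Extraction 10.7.1.1, background-subtracted and detrended within each array and not scaled between arrays, per the file headers. The table of values deposited by the authors is on a log2 scale, reached by steps not given in the sources used here. Its columns, once sorted, differed by at most 0.085 on that scale, as columns do after quantile normalization. The value table and quantile normalization are therefore not independent settings below. Its scale was matched to the scanner values, each column has a median of 4.7, and its direction is that of a level. All 4 arrays share 1 slide and 1 scan.

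Control and outlier spots were left out, log2 intensity was reduced by the 75th percentile of each array, and replicate spots were averaged. Where a gene had more than 1 probe, the brightest stood for it. Probes were named by RefSeq accession (26582), symbol (2602) or synonym (492), and otherwise kept the name of the design. Genes that passed the scanner's background test on at least 2 arrays were fitted with limma 3.58.1 (R 4.3.3) on line and treatment. Each gene had 1 residual degree of freedom, 2.82 prior degrees of freedom and a prior SD of 0.13, with Benjamini-Hochberg adjustment at 0.05. The fit was run on simulated data that held no line effect and no disagreement between lines beyond noise drawn from its own prior. That run shows that the code works and cannot speak for genes in which the lines disagree. Alternatives were the normexp background, quantile normalization, the value table under both namings of the lines, other filters on dim probes, the mean of a gene's probes, an intensity trend and a fit per probe; the last and the renamed table were added after seeing the data. Pairs of arrays were called at 2-fold, with bounds where 1 array was dim.

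The members, the gene lists and the tests were chosen with earlier results of these data known. All members were named. In each list the text names up to 2 called genes with the largest rise and 2 with the largest fall; Sin3a, Ing1, Ing2, Sik2, Ncoa1 and the uncalled genes were named after their values were seen. The 5 nearest genes were sought by Euclidean distance, and 1 of the 5 for Hdac5, a clone name, is not printed.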

Additional observations from a re-analysis of the deposited data

Results flagged for a closer look

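For 5 of the 9 measured genes the AEPS difference had opposite signs on the arrays labelled knockdown and on those labelled scramble, as it did for 22.3% of all 20339 genes well above background on every array. For Hdac9 the difference between the responses was 2.37 on the log2 scale (0.70 with the knockdown label, -1.67 with the scramble label). For Hdac3 it was 0.22, for Hdac8 0.19, for Hdac7 -0.21 and for Hdac2 -0.11. In these 4 genes, by the probe that stood for each, neither line differed by more than 0.21 in size between AEPS and DMEM. The other probe of Hdac8 was lower under AEPS in both lines, by -0.44 with the knockdown label and -0.48 with the scramble label. None of these differences was tested, since each response rests on 1 pair of arrays. That of Hdac9 was known when the family was chosen.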

How the results depend on the processing

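The number of deacetylase genes called for AEPS over both lines was 1 with 4 of the planned settings and with the value table under the scanner files' line names. It was 2 with the normexp background, with an intensity trend and with each probe fitted on its own, and 0 without a filter on dim genes. Over all genes the share called lower moved too, to 11.5% with normexp, 13.8% with the trend and 0.0887% without the filter, against 7.29%, and was 6.86% of probes. With the value table's own line names, past 2-fold under AEPS were 2 genes for the knockdown label and 1 for the scramble label. Between the lines under AEPS, 0 genes passed 2-fold with the normexp background. Under the value table's own line names Hdac9 took 0.69 for AEPS with the scramble label, -1.003 between lines under AEPS, 1.37 in DMEM and -2.37 for the difference in response.

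Other reversals were in effects whose gene-level value no setting called; probe 2 of Hdac1 was called on its own. The AEPS effect of Hdac1 was -0.17 with quantile normalization, -0.14 with the value table under either naming of the lines and -0.29 as the mean of its probes, and that of Hdac8 was 0.0048 with the normexp background. The line effect with the value table's own names was 0.0396 for Hdac1, 0.0836 for Hdac2, 0.0918 for Hdac3, 0.14 for Hdac4, -0.0693 for Hdac5, 0.0636 for Hdac6, -0.0890 for Hdac8 and 0.18 for Hdac9. With the normexp background it was 0.0229 for Hdac2 and -0.0583 for Hdac5, and for Hdac7 it was -0.0162 with quantile normalization and -0.0168 with the value table under the scanner files' names. Quantile normalization moved the median AEPS effect of all tested genes to -0.03, against 0.07. The causes were not tested. The fit on line and treatment already pairs AEPS with DMEM within each line. No further pairing by replicate was possible. Each group holds 1 array and all carry the same replicate number, so a block on that number has 1 level. With 1 array a group, no replicate could be left out.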

Other observations

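Hdac10, a class IIb polyamine deacetylase outside the 10 genes, had 2 probes on chromosome 15. The brighter one had levels of 2.16 and 2.04 under AEPS and 2.39 and 2.58 in DMEM (knockdown label first), so both AEPS arrays were the lower ones. Its AEPS effect was -0.39 ± 0.14 (SE, log2; limma per probe, adjusted p = 0.159). The other probe gave -0.39 ± 0.12 (SE, log2; limma per probe, adjusted p = 0.123). Neither passed the test.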
